A study of Oryza sativa with 12 samples.

Results

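The flag leaf of the rice introgression line IL50-7 was compared with that of KMR3 on 6 of the 12 arrays of the series, 3 for each line. The 6 arrays of this comparison were taken by their labelled line and organ alone. The comparison itself was chosen with earlier results of these data known. The other 6 arrays hold emerged young panicles of the same lines and entered no test between the leaf groups, except in an alternative fit that is named as such. All plants were Oryza sativa grown in a field of DRR, and the replicates of a group are labelled as biological. The sources used here state no treatment, plant age or sampling hour, and neither the number of plants behind an array nor the donor of the introgressed segments. Because nothing says whether the replicates came from separate plots, p-values measure the spread between these arrays.

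The flag leaf is the last leaf below the panicle and supplies much of the carbon that fills the grain. An introgression line carries chromosome segments of a donor in the genome of its other parent, so that its genes differ from that parent in blocks along the chromosomes and are alike elsewhere. A probe on the array binds labelled RNA through base pairing, so its intensity depends on how much of a transcript is present and on how well the transcript's sequence matches the probe, and these cannot be told apart in the intensities alone. In bulk leaf tissue, fewer cells of a type and less RNA per cell cannot be told apart either.

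Each array gave 1 intensity for each of 57381 probe sets, and levels are given as quantile-normalized log2 intensity. The 2% trimmed mean of the deposited intensities ran from 125 to 199 over the 6 leaf arrays. A level below log2 4.07 is called background here, which is the level that 95% of readings of 23 unspiked control probe sets stayed under. Leaf markers were present in both lines: 7 or 8 of 8 flag leaf genes, among them RBCS and RCA, lay above background on each leaf array, with a summed intensity of 60511 to 63593 in KMR3 and 61349 to 63030 in IL50-7. Of 17 floral organ genes 7 or 8 lay above background in KMR3 leaves and 6 to 8 in IL50-7 leaves, with summed intensities of 1560 to 2208 and 1282 to 1705. Of 8 anther and pollen genes 3 or 4 were above background in KMR3 and 2 to 5 in IL50-7 (summed intensities of 305 to 372 and 336 to 390), and of 9 meristem and replication genes 1 or 2 and 2 (123 to 239 and 160 to 191).

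IL50-7 replicate 1 stood apart from its group. Over the tested probe sets (genes are no independent replicates) it correlated with the other IL50-7 leaf arrays at r = 0.897 to 0.910, whereas those 2 correlated with each other at 0.949 and the KMR3 arrays among themselves at 0.930 to 0.939. In IL50-7 replicate 1, 287 of 34316 tested probe sets (0.836%) lay more than 2 log2 units above every other leaf array, against 1 to 12 on any other leaf array. Of these 287, 233 had a mean over the 6 panicle arrays above the highest of the other 5 leaf arrays. The share of all tested probe sets that do so was not computed, so nothing is read from this count. None of the 287 was called between the lines. Such a rise in 1 array widens the spread of its group, and the fit without that array does not see it, so few calls could arise there. Counts of calls and the called genes are therefore given with and without this array. Most uncalled list members are given with all 6 arrays only, and some of them differ more without it. The ratio of 3' to 5' probe sets of GAPDH, a measure of RNA integrity and labelling, was 1.52 on that array. It was 12.4 on IL50-7 replicate 3, which also had the lowest trimmed mean (125), and 2.38 to 4.22 on the other leaf arrays. The same ratio of actin was 8.44 on IL50-7 replicate 1, within the range of 5.85 to 13.6 of the other leaf arrays, and 7.27 on IL50-7 replicate 3. The lines did not differ beyond their spread in either ratio (exact permutation test, two-sided p = 0.9 for GAPDH and 0.6 for actin, where 3 against 3 cannot go below 0.1). Among the panicle arrays, 2 went against their line labels at the genes described below: of the 33 probe sets called in leaves, the array labelled KMR3 panicle replicate 3 lay nearer the IL50-7 leaf mean at 27, and the array labelled IL50-7 panicle replicate 2 nearer the KMR3 leaf mean at 24. The other 4 panicle arrays lay nearer the leaf mean of their own labelled line at 25 to 28 of the 33.

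With all 6 arrays, 33 of 34316 probe sets differed between the lines (0.0962% of those tested; limma, Benjamini-Hochberg adjusted p under 0.05), 21 of them higher in IL50-7 (0.0612%) and 12 lower (0.035%). The calls were few and large. The log2 difference of the higher probe sets ran from 1.82 to 8.24 with a median of 4.10, that of the lower ones from -7.48 to -1.54 with a median of -5.11, and the median over all tested probe sets was -0.01. In 15 of the 33 all 3 arrays of one line lay at background, so that the probe set was read in one line only and its fitted difference gives no size. The 3 arrays of one line lay wholly above or below those of the other at 9.25% of all tested probe sets. The count of calls rested on each library. It was 13, 12 and 9 without KMR3 replicate 1, 2 or 3, and 151, 7 and 18 without IL50-7 replicate 1, 2 or 3.

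Of the 33 probe sets, 19 belong to 17 genes (0.108% of 15743 genes tested that have a chromosome), and 8 of the 17 lie on chromosome 12 (47.1% of the called genes, 1.01% of the 789 genes tested there). Chromosomes 1 and 2 held 3 called genes each, chromosome 5 held 2 and chromosome 4 held 1, and there was none on the other 7. Of the 8 chromosome 12 genes, 5 lay in 2 close groups in the RefSeq gene order. LOC4351817 and LOC4351818 are direct neighbours. After a gap of 104 genes, LOC4351893, LOC4351897 and LOC9272184 follow each other with 3 genes between each pair. These 5 fall in a single bin of 50 neighbouring tested genes, the only bin of 320 that held 3 or more calls. In this bin, picked here for its calls, the lines did not overlap at 44% of the genes, against 9.25% of all tested probe sets. That share is not particular to it, since bins of chromosome 2 with at most 1 call reached 44%, 48% and 50%. The other 3, LOC4351993, LOC4352057 and LOC4352177, lie further along. There were 128, 91 and 164 genes between each of them and the called gene before it. In the plot of levels by array, all 3 KMR3 arrays stand on one side of all 3 IL50-7 arrays for each named gene.

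**Figure D1:**
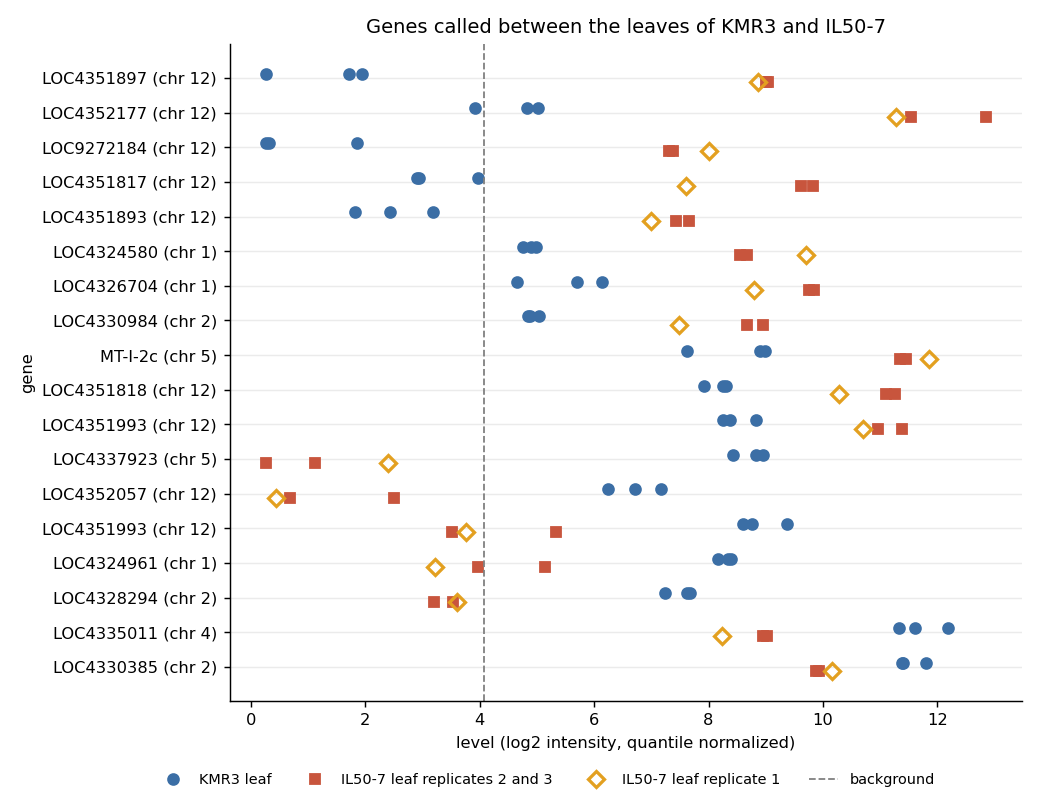
Level of each called gene in the 6 leaf arrays (x axis, log2 intensity after quantile normalization; y axis, gene with its chromosome). Circles are KMR3 replicates, squares IL50-7 replicates 2 and 3, open diamonds IL50-7 replicate 1, and the dashed line is the background of 4.07. In the 11 upper rows IL50-7 is higher and in the 7 lower rows KMR3 is higher, with no overlap in any row, and IL50-7 replicate 1 lies on the side of its own line throughout.

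Of the 8 chromosome 12 genes 7 had a probe set that rose, and LOC4351897, LOC9272184, LOC4351817 and LOC4351893 lay at background on every KMR3 array. LOC4351897 had levels of 1.71, 1.94 and 0.26 in KMR3 replicates 1, 2 and 3 and 8.87, 9.01 and 9.03 in IL50-7. The IL50-7 arrays agree closely and every KMR3 array is at background, so the gene was at least 29.9-fold higher in IL50-7 (log2 difference 7.67, SE 0.48, limma adjusted p = 0.00344). LOC4352177 had levels of 4.82, 5.03 and 3.91 in KMR3 replicates 1, 2 and 3 and 11.28, 12.86 and 11.54 in IL50-7. All IL50-7 arrays are far above all KMR3 arrays, a 158-fold difference (log2 difference 7.30, SE 0.46, limma adjusted p = 0.00344), and 2 of the 3 KMR3 arrays lie above background. These 2 genes were the ones that stayed called whichever leaf array was left out. Each of the other 16 named results lost its call without at least 1 array. The chromosome 12 count of 8 was 5, 3 and 3 without KMR3 replicate 1, 2 or 3 and 2 without IL50-7 replicate 2, and it was 1 with all 12 arrays in the fit and 0 without a filter on dim probe sets.

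LOC9272184 had levels of 1.86, 0.26 and 0.31 in KMR3 replicates 1, 2 and 3 and 8.01, 7.38 and 7.31 in IL50-7. IL50-7 replicate 1 is the highest of the 6 and the KMR3 arrays are all at background (at least 11.3-fold higher in IL50-7, limma adjusted p = 0.00932). LOC4351893, which precedes both in the gene order, had levels of 3.18, 2.43 and 1.81 in KMR3 replicates 1, 2 and 3 and 6.99, 7.66 and 7.43 in IL50-7. It was at least 9.76-fold higher in IL50-7 (limma adjusted p = 0.0135), with no KMR3 array above background. The neighbours LOC4351817 and LOC4351818 both rose. LOC4351817 had levels of 2.91, 3.97 and 2.93 in KMR3 replicates 1, 2 and 3 and 7.60, 9.82 and 9.61 in IL50-7 and was at least 30.7-fold higher, with IL50-7 replicate 1 clearly below the other 2 (limma adjusted p = 0.0258). LOC4351818 had levels of 7.92, 8.30 and 8.25 in KMR3 replicates 1, 2 and 3 and 10.28, 11.10 and 11.26 in IL50-7. Here both lines are well above background and the gene was 6.61-fold higher in IL50-7 (log2 difference 2.72, SE 0.27, limma adjusted p = 0.0199). RefSeq lists these 6 as protein-coding genes under LOC numbers only, so no role is given to them.

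The other chromosome 12 genes fell, or were read both ways. LOC4352057, which RefSeq lists as a long non-coding RNA, had levels of 7.17, 6.24 and 6.71 in KMR3 replicates 1, 2 and 3 and 0.43, 0.68 and 2.50 in IL50-7. All IL50-7 arrays are at background, so it was at least 6.21-fold lower in IL50-7 (limma adjusted p = 0.0391), and neither of its other 2 tested probe sets was called. Both were lower in IL50-7 without overlap, and one of them, which differed by -4.43 (SE 0.69), was called without IL50-7 replicate 1 (log2 difference -3.63, SE 0.36, limma adjusted p = 0.00779). LOC4351993 is covered by 2 called probe sets that moved in opposite directions. The first gave levels of 8.82, 8.37 and 8.25 in KMR3 replicates 1, 2 and 3 and 10.71, 10.96 and 11.38 in IL50-7, 5.79-fold higher in IL50-7 (limma adjusted p = 0.0135). The second gave levels of 8.60, 8.77 and 9.38 in KMR3 replicates 1, 2 and 3 and 3.76, 3.51 and 5.34 in IL50-7, lower in IL50-7, where 1 of the 3 arrays lies above background (log2 difference -4.71, SE 0.50, limma adjusted p = 0.0258). Neither pair of groups overlaps, so this gene has no single direction in these data.

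Other probe sets of a called gene were seldom called with it, but most of them differed in the same direction. Of the 17 called genes 7 had other tested probe sets, 13 in all. In 1 of the 7, LOC4324580, another probe set was called the same way, in 1, LOC4351993, another was called the opposite way, and in the other 5 no other probe set was called. By direction, 10 of the 13 had the sign of the called one, 7 of these 10 without overlap of the lines, and 3 had the opposite sign, all 3 without overlap. The 3 belong to LOC4351993, LOC4330984 and LOC4337923. Without IL50-7 replicate 1, 29 of 84 called genes had other tested probe sets, 42 in all, and in 8 of the 29 another was called the same way. Of the 42, 30 had the sign of the called one and 12 the opposite sign. Genes named below with a probe set of opposite sign include DOS, LOC4330694, LOC4330940, LOC4350407 and LOC4352173.

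The 2 genes called higher on chromosome 1 lie near each other, with 40 genes between them. LOC4324580 had levels of 4.89, 4.75 and 4.99 in KMR3 replicates 1, 2 and 3 and 9.70, 8.67 and 8.55 in IL50-7. The KMR3 arrays sit close together just above background and the gene was 17.1-fold higher in IL50-7 (log2 difference 4.10, SE 0.34, limma adjusted p = 0.00932). LOC4326704 had levels of 5.71, 4.66 and 6.14 in KMR3 replicates 1, 2 and 3 and 8.80, 9.84 and 9.76 in IL50-7, a 15.6-fold difference in the same direction (limma adjusted p = 0.0290). The third gene of this chromosome, LOC4324961, fell. Its levels were 8.39, 8.16 and 8.33 in KMR3 replicates 1, 2 and 3 and 3.22, 3.97 and 5.13 in IL50-7, so that the KMR3 arrays agree closely and only IL50-7 replicate 3 is above background. The log2 difference was -4.19 (SE 0.47), with limma adjusted p = 0.0292, and no fold is given.

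On chromosome 5, MT-I-2c rose and the called probe set of LOC4337923 fell. MT-I-2c (listed also as MT2C) encodes a metallothionein, a small cysteine-rich protein that binds metal ions and scavenges reactive oxygen. Its called probe set had levels of 7.62, 8.99 and 8.91 in KMR3 replicates 1, 2 and 3 and 11.85, 11.35 and 11.45 in IL50-7, with KMR3 replicate 1 below the other KMR3 arrays and IL50-7 replicate 1 above the other IL50-7 arrays. It was 8.27-fold higher in IL50-7 (log2 difference 3.05, SE 0.36, limma adjusted p = 0.0391). The brightest of the gene's 5 tested probe sets gave levels of 9.49, 11.75 and 11.39 in KMR3 replicates 1, 2 and 3 and 13.39, 13.02 and 13.20 in IL50-7. These groups do not overlap either, but the difference of 2.33 (SE 0.52) did not pass (limma adjusted p = 0.478). It and the other 3 uncalled probe sets were all higher in IL50-7 without overlap, by 2.19 to 2.33. The called probe set of LOC4337923 had levels of 8.95, 8.43 and 8.83 in KMR3 replicates 1, 2 and 3 and 2.40, 1.12 and 0.26 in IL50-7. It was read on every KMR3 array and on no IL50-7 array, at least 25.4-fold lower in IL50-7 (log2 difference -7.48, SE 0.55, limma adjusted p = 0.00674). The other 2 tested probe sets of the gene were not called. Of these, 1 differed by -0.07 with overlap and 1 by 2.93 in the opposite direction without overlap, so LOC4337923 has no single direction in these data.

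On chromosome 4 LOC4335011 fell, with levels of 11.33, 11.62 and 12.19 in KMR3 replicates 1, 2 and 3 and 8.23, 9.02 and 8.95 in IL50-7. Both lines are bright and far apart here, 7.91-fold lower in IL50-7 (log2 difference -2.98, SE 0.29, limma adjusted p = 0.0158). Of the 3 called genes of chromosome 2, LOC4330984, listed also as OsC3H18 and so named as a CCCH zinc finger gene, had a called probe set that rose. That probe set had levels of 4.85, 4.88 and 5.04 in KMR3 replicates 1, 2 and 3 and 7.49, 8.96 and 8.67 in IL50-7, 10.9-fold higher in IL50-7 with replicate 1 the lowest of the 3 (limma adjusted p = 0.0321). Its other 2 tested probe sets were not called. They differed by -1.02 without overlap and by 0.26 with overlap, so LOC4330984 has no single direction in these data. LOC4328294 had levels of 7.63, 7.23 and 7.68 in KMR3 replicates 1, 2 and 3 and 3.61, 3.54 and 3.20 in IL50-7 and was at least 10.9-fold lower in IL50-7, where no array is above background (limma adjusted p = 0.00674). LOC4330385 had levels of 11.79, 11.39 and 11.41 in KMR3 replicates 1, 2 and 3 and 10.15, 9.93 and 9.87 in IL50-7. This was the smallest change named with all 6 arrays, 2.92-fold lower in IL50-7, with tight groups on both sides (log2 difference -1.54, SE 0.16, limma adjusted p = 0.0258).

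Without IL50-7 replicate 1 all 18 of these named results were also called, in the same direction. On chromosome 12 the log2 difference was then 7.72 for LOC4351897, 7.61 for LOC4352177, 6.53 for LOC9272184, 6.45 for LOC4351817, 5.06 for LOC4351893 and 3.02 for LOC4351818, with -5.11 for LOC4352057 and 2.69 and -4.49 for the 2 probe sets of LOC4351993. On the other chromosomes it was 3.73 for LOC4324580, 4.30 for LOC4326704, 3.89 for LOC4330984 and 2.90 for MT-I-2c, and -8.05 for LOC4337923, -3.74 for LOC4324961, -4.14 for LOC4328294, -2.73 for LOC4335011 and -1.63 for LOC4330385. Against the difference with all 6 arrays, LOC4351817 moved furthest of the 18, by 0.71, so that its bound went from at least 30.7-fold to at least 50.1-fold. LOC4337923, whose IL50-7 arrays are all at background, moved by 0.57, and the other 16 by 0.44 or less.

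Of the 14 called probe sets without a single listed gene, 4 are named by the size of their fitted difference, which gives no order where a line lies at background. One that rose had levels of 0.26, 1.04 and 0.26 in KMR3 replicates 1, 2 and 3 and 8.05, 9.26 and 8.98 in IL50-7, at background in every KMR3 array and at least 25.8-fold higher in IL50-7 (limma adjusted p = 0.00344). Another rise had levels of 3.15, 0.49 and 0.26 in KMR3 replicates 1, 2 and 3 and 7.74, 9.20 and 9.17 in IL50-7, at least 24.8-fold higher (limma adjusted p = 0.0278). In the other direction, one fall had levels of 8.85, 8.76 and 9.003 in KMR3 replicates 1, 2 and 3 and 1.46, 2.78 and 0.26 in IL50-7, at least 27.8-fold lower in IL50-7 (limma adjusted p = 0.00932). Another fall had levels of 9.94, 9.07 and 10.48 in KMR3 replicates 1, 2 and 3 and 4.19, 3.92 and 3.61 in IL50-7. Only IL50-7 replicate 1 exceeds the background among the IL50-7 arrays, and the lines differed by -5.92 (SE 0.38) on the log2 scale (limma adjusted p = 0.00344). Without that array this probe set was at least 54.2-fold lower in IL50-7.

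Without IL50-7 replicate 1, 151 probe sets were called (0.44% of the same 34316), 41 higher in IL50-7 (0.119%) and 110 lower (0.321%). All 33 calls of the full comparison are among them. The 151 cover 84 genes (0.534% of genes), and 51 of the 84 lie on chromosome 2 (60.7% of the called genes, 2.7% of the 1890 tested there), 47 of them lower in IL50-7 and 4 higher. Chromosome 1 held 13, chromosome 12 held 10, chromosome 11 held 5, chromosomes 4 and 5 held 2 each and chromosome 3 held 1. The lines did not overlap at 22.2% of all tested probe sets, where a group of 2 is set against a group of 3. The count of 151 was 92 when KMR3 replicate 1 was left out as well, 55 without IL50-7 replicate 2 and 80 without IL50-7 replicate 3, and the chromosome 2 count of 51 was 29, 14 and 23.

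**Figure D2:**
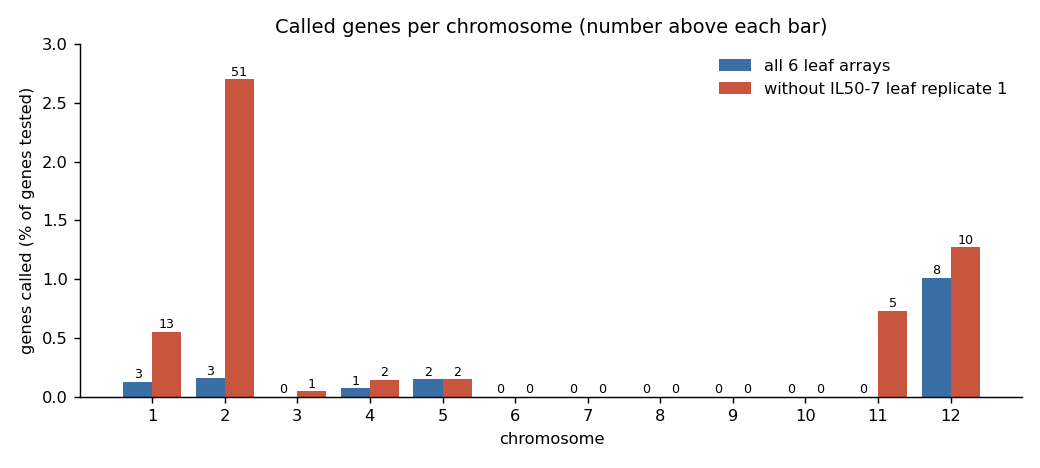
Share of tested genes called between the lines on each chromosome (y axis, percent of genes tested; number of called genes above each bar), with all 6 leaf arrays and without IL50-7 replicate 1. Chromosome 12 stands highest with all arrays at 1.01%, and chromosome 2 stands highest without replicate 1 at 2.7%.

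The chromosome 2 genes formed a run. In gene order, 8 of the 12 bins with 3 or more calls lay on chromosome 2 between LOC4330280 and LOC4331058, within 10 consecutive bins that hold 500 tested genes. Without IL50-7 replicate 1, 48 of these 500 genes were called (9.6%), 44 lower and 4 higher in IL50-7, against 0.236% of the other 15243 genes. The run was chosen from calls that used IL50-7 replicates 2 and 3, so its values in those arrays are a description. Replicate 1 was left out of the test behind those calls, but it entered the normalization and the filter on dim probe sets. It is also set against the KMR3 arrays that made the calls, so its values are a description too. Genes more than 1 log2 unit below the KMR3 mean made up 37 of the 500 in replicate 1 (7.4%), 104 in replicate 2 (20.8%) and 111 in replicate 3 (22.2%), against 4.11%, 3.67% and 5.07% of the other genes. With all 6 arrays the lines did not overlap at 33.6% of the genes of the run and at 8.8% of the others, and 2 genes of the run were called.

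**Figure D3:**
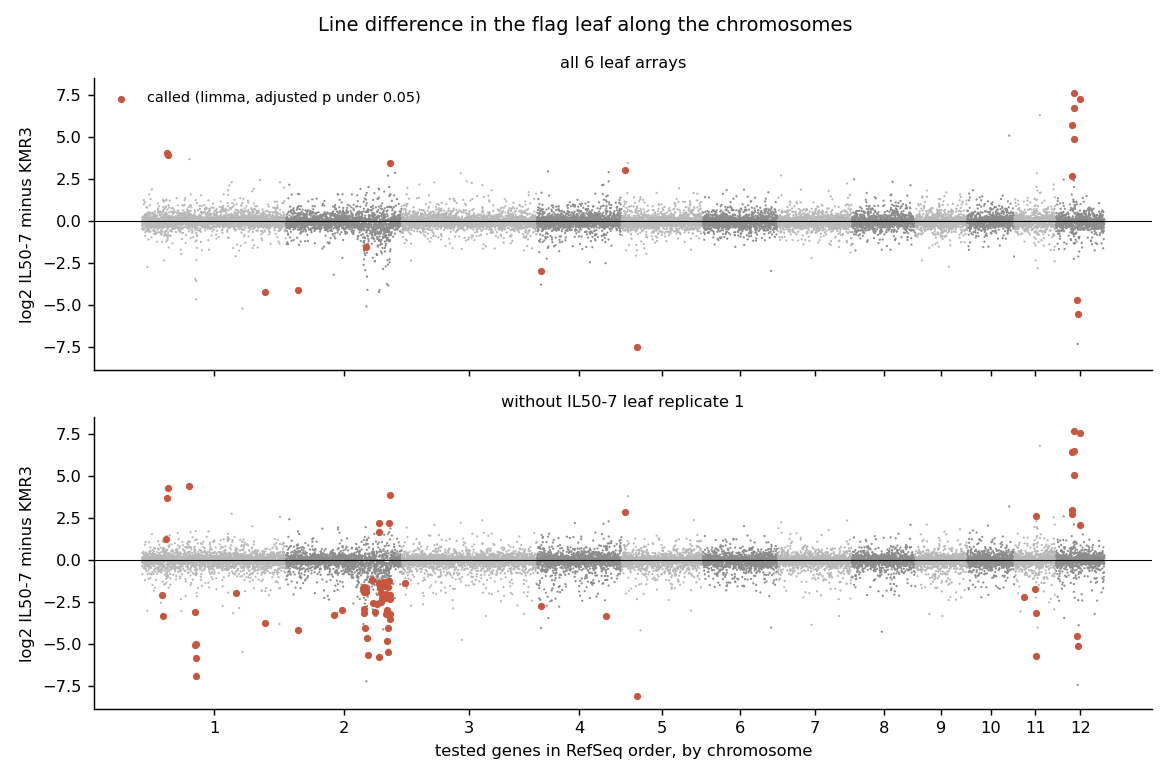
Log2 difference, IL50-7 minus KMR3, of each tested gene in RefSeq order along the 12 chromosomes (grey, the gene's brightest probe set), with called genes in red at their called probe set. The upper panel uses all 6 leaf arrays, with 17 called genes, and the lower panel leaves out IL50-7 replicate 1, with 84 called genes, most of them in a block of falls on chromosome 2.

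**Figure D4:**
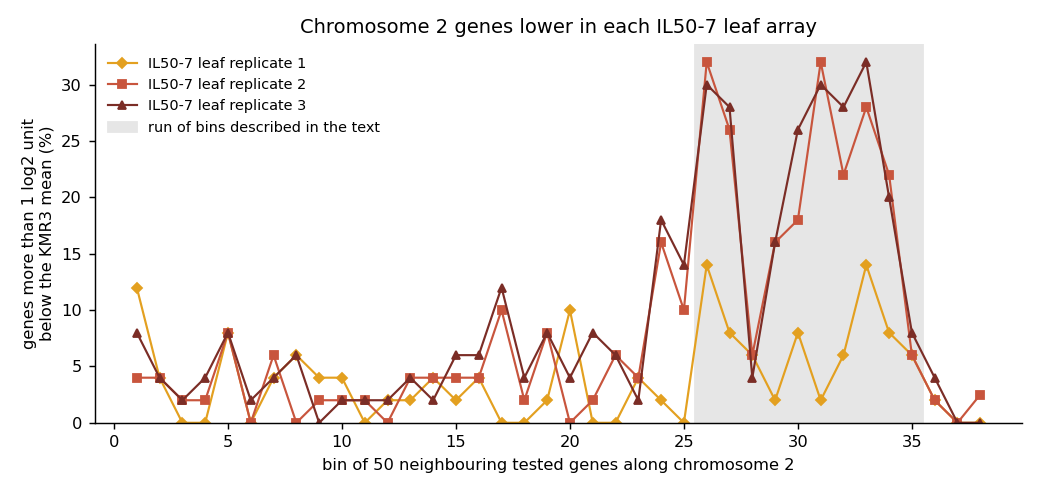
Share of genes more than 1 log2 unit below the KMR3 leaf mean (y axis, percent) in bins of 50 neighbouring tested genes along chromosome 2 (x axis, the last bin holds 40), 1 line for each IL50-7 leaf array. Taken over the 500 genes of the shaded run of 10 bins, the share is 20.8% in replicate 2, 22.2% in replicate 3 and 7.4% in replicate 1, and single bins lie above and below these values.

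Of the named falls of the run that were called only without IL50-7 replicate 1, HSP18.6, LOC4330422 and LOC4330703 were read in replicate 1 and were low or at background in replicates 2 and 3. LOC4330385, described above, also lies in the run, and it was read on all 6 arrays with replicate 1 on the side of its own line. HSP18.6, a small heat shock protein of the kind that holds unfolded proteins in solution, had levels of 9.30, 9.97 and 9.79 in KMR3 replicates 1, 2 and 3 and 9.08, 3.66 and 4.86 in IL50-7. Replicate 1 lies just below the KMR3 arrays and the other 2 lie far below, 1 of them at background, so that no fold is given. Without replicate 1 the log2 difference was -5.43 (SE 0.38, limma adjusted p = 0.00207), and with all arrays the call was lost (adjusted p = 0.914). A second probe set of the gene, with both of these arrays at background, was called the same way at at least 14.8-fold lower. LOC4330422 had levels of 10.23, 10.15 and 10.62 in KMR3 replicates 1, 2 and 3 and 9.35, 3.50 and 5.93 in IL50-7, with the same order of arrays (log2 difference without replicate 1 -5.62, SE 0.62, limma adjusted p = 0.0122, and 0.870 with it). LOC4330703 had levels of 7.90, 7.37 and 7.48 in KMR3 replicates 1, 2 and 3 and 6.50, 0.26 and 3.40 in IL50-7. It was at least 11.4-fold lower without replicate 1, which alone among the IL50-7 arrays lies above background (limma adjusted p = 0.0435, and 0.914 with it). LOC4330899 had levels of 5.59, 4.81 and 4.75 in KMR3 replicates 1, 2 and 3 and 3.45, 0.26 and 0.26 in IL50-7. Here replicate 1 is at background too, and the bound is small, at least 1.97-fold (limma adjusted p = 0.04996).

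Other genes of chromosome 2 that carry a name, chosen after their values were seen, gave the same order of arrays at smaller sizes. CYP76M8, a cytochrome P450 of the diterpenoid phytoalexin pathways, had levels of 5.89, 6.09 and 6.21 in KMR3 replicates 1, 2 and 3 and 5.47, 3.08 and 3.13 in IL50-7 and was at least 3.99-fold lower without replicate 1 (limma adjusted p = 0.0241). ML2, a gene of the MEI2-like RNA-binding family, had levels of 9.69, 10.33 and 10.13 in KMR3 replicates 1, 2 and 3 and 9.59, 7.38 and 7.69 in IL50-7, 5.71-fold lower (limma adjusted p = 0.00599). ISPF, an enzyme of the plastid pathway that makes isoprenoid precursors, had levels of 11.27, 11.24 and 11.79 in KMR3 replicates 1, 2 and 3 and 11.001, 9.61 and 10.13 in IL50-7, 2.95-fold lower (limma adjusted p = 0.0445). In all 3 genes IL50-7 replicate 1 lies below every KMR3 array and above IL50-7 replicates 2 and 3. ANT had levels of 11.97, 11.97 and 12.03 in KMR3 replicates 1, 2 and 3 and 11.55, 10.82 and 10.80 in IL50-7. It was 2.28-fold lower with replicate 1 between the lines (limma adjusted p = 0.00654).

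The rises of chromosome 2 behaved alike in that replicate 1 sat between the lines. LOC4330694 had levels of 8.04, 8.40 and 8.43 in KMR3 replicates 1, 2 and 3 and 9.74, 10.54 and 10.43 in IL50-7 (4.59-fold higher without replicate 1, limma adjusted p = 0.00444, and 0.0536 with it). LOC4330940 had levels of 6.59, 6.11 and 6.34 in KMR3 replicates 1, 2 and 3 and 7.15, 8.72 and 8.47 in IL50-7 (4.74-fold higher, limma adjusted p = 0.0115, and 0.544 with it). LOC4330704 had levels of 10.49, 10.10 and 10.03 in KMR3 replicates 1, 2 and 3 and 11.04, 11.92 and 11.92 in IL50-7 (3.26-fold higher, limma adjusted p = 0.00762, and 0.267 with it). In each, the lines do not overlap with replicate 1 included, and replicate 1 is the lowest IL50-7 array. Each of these rises rests on 1 probe set, and LOC4330704 has no other tested one. Without replicate 1 the other tested probe sets of LOC4330694 differed by -0.37 and -0.27, and those of LOC4330940 by 0.32 and -0.60. None of these was called.

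A second group of falls on chromosome 1 had IL50-7 replicate 1 at or near the KMR3 level. In a bin of 50 genes there, 5 were called without replicate 1 and none with it. LOC9272373 had levels of 8.77, 8.16 and 8.69 in KMR3 replicates 1, 2 and 3 and 8.38, 0.26 and 3.05 in IL50-7, so that replicate 1 lies within the KMR3 range (at least 22.1-fold lower without it, limma adjusted p = 0.0114, and 0.9996 with it). LOC4327793 had levels of 8.12, 7.85 and 8.32 in KMR3 replicates 1, 2 and 3 and 7.82, 2.93 and 3.24 in IL50-7 (at least 16.2-fold lower without replicate 1, limma adjusted p = 0.00157). LOC4326426 had levels of 8.31, 7.57 and 7.76 in KMR3 replicates 1, 2 and 3 and 7.23, 3.15 and 2.63 in IL50-7 (at least 14.02-fold lower without it, limma adjusted p = 0.00207). For these 3 genes the 2 IL50-7 leaf arrays other than replicate 1 are at background. All 3 genes were read on every panicle array of both labelled lines. The arrays labelled IL50-7 panicle replicates 1, 2 and 3 gave 8.25, 8.81 and 7.60 for LOC9272373. They gave 8.79, 9.10 and 7.54 for LOC4327793 and 7.34, 7.53 and 6.80 for LOC4326426. Among all arrays the low readings were thus seen in these 2 leaf arrays only. DOS, a CCCH zinc finger gene that in rice delays leaf senescence and was picked for its name after its values were seen, lies on the same chromosome. Its called probe set had levels of 8.68, 9.52 and 8.91 in KMR3 replicates 1, 2 and 3 and 9.55, 6.91 and 7.01 in IL50-7. Replicate 1 lay above every KMR3 array (4.22-fold lower without it, limma adjusted p = 0.0284, and 0.9996 with it). Its other tested probe set was not called. Without replicate 1 that probe set was higher in IL50-7 by 1.58 and the lines did not overlap, so DOS has no single direction in these data.

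On chromosome 11 a bin of 50 genes held 4 calls without replicate 1 and none with it. LOC4350407 had levels of 7.59, 7.86 and 8.87 in KMR3 replicates 1, 2 and 3 and 6.98, 2.97 and 1.85 in IL50-7 (at least 16.4-fold lower without replicate 1, limma adjusted p = 0.00507), and replicate 1 lies below the KMR3 arrays but far above the other IL50-7 arrays. LOC4350416 had levels of 6.30, 6.62 and 6.69 in KMR3 replicates 1, 2 and 3 and 7.07, 8.04 and 8.40 in IL50-7 (3.21-fold higher, limma adjusted p = 0.0458). On chromosome 12 and elsewhere some rises were called only without replicate 1 although that array lay nearer its own line. LOC4351805 had levels of 7.88, 8.90 and 8.91 in KMR3 replicates 1, 2 and 3 and 10.72, 11.46 and 11.18 in IL50-7 (6.75-fold higher, limma adjusted p = 0.0160, and 0.0511 with it), and LOC4352173 of the same chromosome 12 had 6.49, 6.62 and 6.83 in KMR3 replicates 1, 2 and 3 and 8.27, 8.54 and 9.02 in IL50-7 (4.39-fold, 0.0142, and 0.0560 with it, both limma adjusted p). NCL1 of chromosome 1, a member of the sodium and calcium exchanger-like family, had levels of 8.19, 8.11 and 8.12 in KMR3 replicates 1, 2 and 3 and 9.34, 9.50 and 9.33 in IL50-7 (2.43-fold higher, limma adjusted p = 0.0297, and 0.0566 with it). LOC4325715 of chromosome 1 had levels of 2.30, 2.59 and 4.38 in KMR3 replicates 1, 2 and 3 and 5.39, 7.42 and 7.56 in IL50-7, with replicate 1 between the lines, and the KMR3 mean is at background although replicate 3 is not (log2 difference without replicate 1 4.40, SE 0.65, limma adjusted p = 0.0497). Of these 16 named results, 4 stayed called when any of the remaining 5 arrays was left out: HSP18.6, LOC4327793, LOC4326426 and LOC4350407.

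IL50-7 replicate 1 can be placed between the lines at the 151 probe sets as a description only. The test that called them left it out, but the filter on dim probe sets used it. The KMR3 arrays and IL50-7 replicates 2 and 3, which it is set against, made the calls. Positions are on a scale of log2 levels where 0 is the KMR3 mean and 1 the mean of IL50-7 replicates 2 and 3. On this scale replicate 1 lay nearer KMR3 at 86 of the 151. By chromosome, it lay nearer IL50-7 at 12 of 13 probe sets of chromosome 12 (median position 0.88) and at 4 of 5 on chromosomes 3, 4 and 5 (0.86). It lay nearer KMR3 at 39 of 52 on chromosome 2 (0.33), at 10 of 17 on chromosome 1 (0.21) and at 4 of 6 on chromosome 11 (0.28). At the 49 probe sets of the chromosome 2 run it lay nearer KMR3 at 38 (0.32), and within the KMR3 range at 4. On linear intensities its median place over those 49 was 48.2% of the way from the KMR3 mean to that of the other IL50-7 arrays, with quartiles of 32.3% and 60.3%. At 11 of the 52 chromosome 2 probe sets every KMR3 leaf array lay above background and the mean of IL50-7 replicates 2 and 3 lay at it. Replicate 1 read 8 of these 11, and it was at background at the other 3, which belong to LOC4328294, LOC4329485 and LOC4330899. Of these 11 the panicle arrays labelled KMR3 read 10, 8 and 3 in replicates 1, 2 and 3, and those labelled IL50-7 read 4, 8 and 4.

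Across 28 gene lists of leaf function, hormone response, stress, transport and development, no member was called with all 6 arrays, taking for each gene its brightest tested probe set. On the same basis 12 of 15745 genes were called (0.0762%). Without IL50-7 replicate 1, 72 genes were called on this basis (0.457%), and 2 of them are list members: HSP18.6 among 45 heat shock genes and LOGL3 among 26 cytokinin genes. LOGL3 belongs to the LONELY GUY family, which releases active cytokinin from its nucleotide. It had levels of 9.29, 9.17 and 9.09 in KMR3 replicates 1, 2 and 3 and 8.03, 7.70 and 7.98 in IL50-7, so the lines do not overlap with any array included. It was 2.55-fold lower without replicate 1 (limma adjusted p = 0.0330), and the difference with it was -1.29 (SE 0.18, adjusted p = 0.0921).

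**Figure D5:**
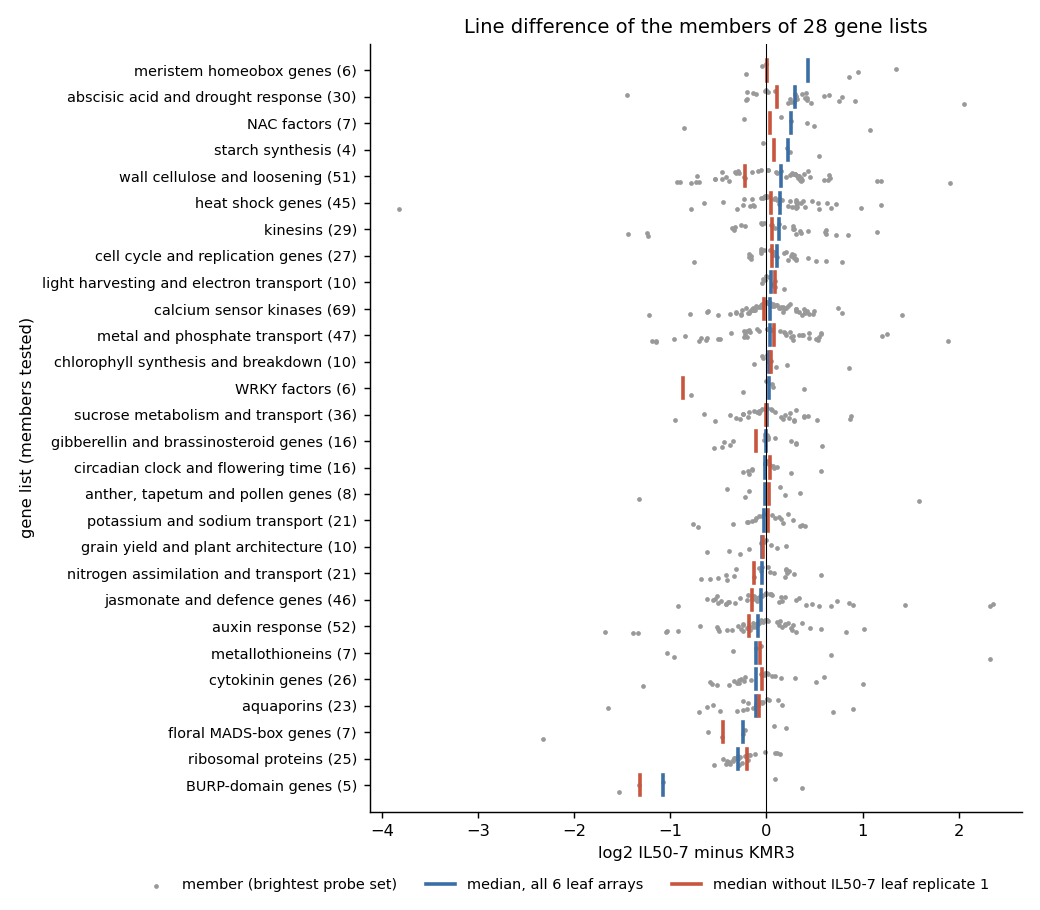
Log2 difference, IL50-7 minus KMR3, of the tested members of each list with all 6 leaf arrays (grey points, 1 brightest probe set per gene; number of members in parentheses), with list medians with all arrays (blue) and without IL50-7 replicate 1 (red). Most medians lie near the median of all genes, -0.02, and that of the 5 BURP-domain genes lies lowest at -1.08 and -1.32.

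The genes of photosynthesis were close between the lines. The 10 light harvesting and electron transport genes had a median difference of 0.05, against -0.02 over all genes, and 0.09 without replicate 1. PSAG, a photosystem I subunit, had levels of 11.67, 11.85 and 12.07 in KMR3 replicates 1, 2 and 3 and 12.01, 12.09 and 12.04 in IL50-7. These overlap (limma adjusted p = 0.9996). PSAH, another subunit of the same complex, differed by 0.09 (SE 0.09), each IL50-7 array lying slightly above each KMR3 array (adjusted p = 0.9996). The 10 chlorophyll genes had a median of 0.03. PORA, a protochlorophyllide reductase, had levels of 10.74, 10.34 and 9.87 in KMR3 replicates 1, 2 and 3 and 12.84, 9.85 and 10.85 in IL50-7, where replicate 1 is above all other arrays, and the difference of 0.86 became 0.03 without it. CHLH, a subunit of magnesium chelatase, differed by 0.10 (SE 0.14, adjusted p = 0.9996).

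Carbon and nitrogen genes gave no call either. Over 36 genes of sucrose metabolism and transport the median was 0.00 and over 4 starch synthesis genes 0.23 (0.07 without replicate 1). SWEET6A, a sugar efflux transporter, had levels of 8.75, 8.97 and 8.96 in KMR3 replicates 1, 2 and 3 and 8.09, 8.15 and 8.81 in IL50-7, the 2 lines overlapping (limma adjusted p = 0.9996). LOC9267741 of the same list had 9.93, 10.05 and 10.16 in KMR3 replicates 1, 2 and 3 and 10.33, 10.37 and 10.29 in IL50-7, a non-overlapping difference of 0.28 (SE 0.14, adjusted p = 0.9996). SSI, a soluble starch synthase, differed by 0.55 (SE 0.24), and AGPS2, a small subunit of ADP-glucose pyrophosphorylase, by 0.24 (SE 0.13, adjusted p = 0.9996 for both). Of 21 nitrogen genes, GS1-1 is a cytosolic glutamine synthetase whose gene lies in the chromosome 2 run. It had levels of 11.32, 11.27 and 11.41 in KMR3 replicates 1, 2 and 3 and 11.16, 10.86 and 10.76 in IL50-7. Every IL50-7 array was lower (difference -0.41, SE 0.14, limma adjusted p = 0.9996, and 0.297 without replicate 1). AMT2-1, an ammonium transporter, differed by -0.59 (SE 0.25), again without overlap (adjusted p = 0.9996).

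Among the stress lists, the 30 abscisic acid and drought genes had a median of 0.30 (0.11 without replicate 1), against -0.02 over all genes. RAB16B, a dehydrin induced by drying and abscisic acid, had levels of 6.77, 5.35 and 6.37 in KMR3 replicates 1, 2 and 3 and 7.65, 8.90 and 8.11 in IL50-7. Every IL50-7 array is above every KMR3 array, and the difference of 2.06 (SE 0.45) did not pass over all probe sets (limma adjusted p = 0.466, and 0.148 without replicate 1). ZEP, an enzyme of abscisic acid synthesis, differed by 0.23 (SE 0.11, adjusted p = 0.9996). The 45 heat shock genes had a median of 0.14, and apart from HSP18.6 none was called in either comparison. The 46 jasmonate and defence genes had a median of -0.06. AOS2, an allene oxide synthase of jasmonate synthesis, had levels of 4.17, 2.40 and 0.58 in KMR3 replicates 1, 2 and 3 and 5.14, 4.28 and 4.71 in IL50-7, with 1 KMR3 array above background (difference 2.32, SE 0.90, adjusted p = 0.9996). LOC4340490 of that list differed by 0.67 (SE 0.27, limma adjusted p = 0.9996), and by 0.89 (SE 0.23, limma adjusted p = 0.392) without replicate 1. Of 6 WRKY factors WRKY62 had levels of 7.50, 7.57 and 7.08 in KMR3 replicates 1, 2 and 3 and 6.77, 6.76 and 6.26 in IL50-7, without overlap (difference -0.78, SE 0.26, adjusted p = 0.985). WRKY76 differed by -0.24 with replicate 1, which lies above all KMR3 arrays at 10.48, and by -0.97 without it. The median of the list moved with it, from 0.02 to -0.87. NAC067 of the 7 NAC factors was likewise highest in replicate 1 at 11.68, with 10.04 and 9.65 in replicates 2 and 3 and 8.80, 9.47 and 9.87 in KMR3. NAC010 differed by -0.86 (SE 0.51, adjusted p = 0.9996).

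With all 6 arrays, hormone lists stayed near the median of all genes. The 52 auxin genes had a median of -0.09, and -0.18 without replicate 1, against -0.02 and -0.01 over all genes. GH3-8, an enzyme that conjugates auxin to amino acids, had levels of 6.69, 6.38 and 5.31 in KMR3 replicates 1, 2 and 3 and 4.78, 4.77 and 4.82 in IL50-7. The IL50-7 arrays are nearly equal and below the 3 KMR3 arrays (difference -1.34, SE 0.41, limma adjusted p = 0.879). GH3-2 of the same family had levels of 9.44, 8.73 and 8.17 in KMR3 replicates 1, 2 and 3 and 6.52, 6.76 and 8.90 in IL50-7, and IL50-7 replicate 3 lies within the KMR3 range. The 16 gibberellin and brassinosteroid genes had a median of 0.00, and -0.10 without replicate 1. D35, ent-kaurene oxidase of gibberellin synthesis, had levels of 7.70, 7.81 and 7.92 in KMR3 replicates 1, 2 and 3 and 7.15, 7.38 and 7.26 in IL50-7, without overlap (difference -0.55, SE 0.20, adjusted p = 0.9996). CYP701A8, from the same cytochrome P450 subfamily, differed by -0.46 (SE 0.23, adjusted p = 0.9996).

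Several of the transport genes named differed without overlap but did not pass. They are the members with the smallest p of their lists, and the lines did not overlap at 9.25% of all tested probe sets. Nothing is therefore read from them about transport genes as a class. Of 47 metal and phosphate transport genes, MTP3 of the metal tolerance protein family, on chromosome 2 within the run, had levels of 11.35, 10.46 and 11.44 in KMR3 replicates 1, 2 and 3 and 10.04, 9.87 and 9.89 in IL50-7, all IL50-7 arrays lower (difference -1.15, SE 0.26, limma adjusted p = 0.486). ZIP7 of the zinc and iron transporter family had levels of 5.84, 6.07 and 6.09 in KMR3 replicates 1, 2 and 3 and 5.22, 4.95 and 4.26 in IL50-7. The difference was -1.20 (SE 0.35, limma adjusted p = 0.832), and -1.40 (SE 0.36, limma adjusted p = 0.382) without replicate 1. LSI1, the silicon influx channel and one of 23 aquaporin family genes, also lies in the run, where the lines did not overlap at 33.6% of the genes. It had levels of 8.92, 9.60 and 9.24 in KMR3 replicates 1, 2 and 3 and 8.30, 8.59 and 8.78 in IL50-7, lower on every IL50-7 array (difference -0.70, SE 0.23, adjusted p = 0.972). PIP2-5, a plasma membrane water channel, differed by 0.69 (SE 0.30, adjusted p = 0.9996). The potassium transporters HAK17 and HAK16, of 21 potassium and sodium transport genes, differed by -0.72 (SE 0.35) and 0.35 (SE 0.18, limma adjusted p = 0.9996 for both). Of 69 calcium sensors and kinases CBL9, a calcineurin B-like sensor, had levels of 6.58, 6.36 and 6.004 in KMR3 replicates 1, 2 and 3 and 4.97, 5.33 and 4.99 in IL50-7, lower on every IL50-7 array (difference -1.22, SE 0.30, adjusted p = 0.592). CML29, a calmodulin-like protein, differed by -0.50 (SE 0.13), without overlap (adjusted p = 0.738). Of 7 metallothioneins, MT4A had levels of 13.11, 11.85 and 12.45 in KMR3 replicates 1, 2 and 3 and 10.78, 11.52 and 12.24 in IL50-7, which overlap.

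Genes of growth and organ identity held no call. Of the 7 tested floral MADS-box genes, MADS3, a floral organ identity gene, had levels of 6.65, 6.85 and 7.64 in KMR3 replicates 1, 2 and 3 and 4.31, 5.09 and 4.78 in IL50-7. All 3 IL50-7 arrays lie below the KMR3 arrays and above background, with a difference of -2.32 (SE 0.37, limma adjusted p = 0.141, and 0.0980 without replicate 1). MADS16, a gene of the same family, differed by -0.46 (SE 0.30, limma adjusted p = 0.9996), and by -0.79 (SE 0.20, limma adjusted p = 0.393) without replicate 1. The 51 genes of wall cellulose and loosening had a median of 0.15 with all arrays and -0.22 without replicate 1. EXPL4, an expansin-like gene, differed by -0.78 (SE 0.36) and the expansin EXP5, in the chromosome 2 run, by 1.91 (SE 0.94, limma adjusted p = 0.9996 for both). Of 29 kinesins KIN14K had levels of 6.97, 7.70 and 7.48 in KMR3 replicates 1, 2 and 3 and 5.70, 6.43 and 6.34 in IL50-7, all IL50-7 arrays lower (difference -1.23, SE 0.31, adjusted p = 0.629). KIN8B differed by 0.84 (SE 0.45, adjusted p = 0.9996). The 27 cell cycle genes had a median of 0.11, with -0.75 (SE 0.45) for the cyclin CYCA3-2 and 0.78 (SE 0.56) for LOC4327547. The 6 meristem homeobox genes, among which OSH71 differed by 0.86 and OSH45 by -0.22, had a median of 0.43 that was 0.01 without replicate 1. Of 8 anther and pollen genes TDR differed by 1.59 and RAFTIN1 by -1.32, both with KMR3 arrays at or near background.

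The remaining lists also held no call. The 25 ribosomal protein genes had a median of -0.30 (-0.21 without replicate 1) against -0.02 over all genes. RPL39B, in the chromosome 2 run, had levels of 12.56, 12.48 and 12.47 in KMR3 replicates 1, 2 and 3 and 12.07, 12.23 and 12.33 in IL50-7 and RPL11 a difference of -0.54 (SE 0.21, limma adjusted p = 0.9996 for both). The 5 tested BURP-domain genes had the lowest median, -1.08, but RAFTIN1 and BURP12 lay near background in KMR3 and BURP02 was higher in IL50-7 by 0.37 (SE 0.16). BURP16 had levels of 8.15, 7.05 and 5.24 in KMR3 replicates 1, 2 and 3 and 4.85, 5.23 and 5.76 in IL50-7, which overlap. Of 16 clock and flowering time genes PRR95, a pseudo-response regulator, had levels of 12.83, 12.82 and 12.84 in KMR3 replicates 1, 2 and 3 and 12.57, 12.82 and 12.56 in IL50-7, and SE5, which makes the phytochrome chromophore, differed by 0.26 (SE 0.17, limma adjusted p = 0.9996 for both). Of 10 genes of grain yield and plant architecture D14, the strigolactone receptor, had levels of 11.75, 11.74 and 11.27 in KMR3 replicates 1, 2 and 3 and 11.19, 11.21 and 11.54 in IL50-7, which overlap (difference -0.27, SE 0.17, limma adjusted p = 0.9996). SPL16, which affects grain width, differed by -0.61 (SE 0.60) and lay at background on most leaf arrays.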

How the data were processed

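Per the labels' protocols, biotin-labelled RNA was hybridised to 1-colour Affymetrix rice arrays, and the authors deposited linear intensities from 0.0139 to 21276 for 57381 probe sets and 12 arrays. The submitters' processing notes name GCOS version 1.2, not what it was used for. The array scaling, background correction and genome build were not given in the sources used here.

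The intensities were log2 transformed, quantile normalized over all 12 arrays so that panicle levels could be set beside leaf levels, and raised to a floor of log2 0.26, their 10th percentile. Without the 187 controls, the 34316 probe sets whose mean over the 6 leaf arrays exceeded the 40th percentile were tested. The lines were compared on the leaf arrays with limma 3.58.1 (R 4.3.3), with a prior variance that follows intensity, 4 residual and 3.76 prior degrees of freedom (3 and 4.31 without IL50-7 replicate 1), and with Benjamini-Hochberg adjustment at 0.05 over all tested probe sets. The method was tested on simulated data. The number of arrays limits the precision. No 2 arrays held identical values.

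Where all arrays of the dimmer line lay at background, the fold is a bound, the brighter mean over the background of log2 4.07 (intensity 16.8). No fold is given where the dimmer line's mean lay there or fewer than 2 of its arrays lay above it. Probe sets were named through the platform annotation and RefSeq's ASM3414082v1, used for names, chromosome numbers and gene order only: 22436 have 1 gene, 95 several and 34663 none listed, and all 17905 genes were found. Named genes are up to 12 called genes each way by size of change with a brighter mean above background, up to 8 more each way without IL50-7 replicate 1, up to 3 called members or else the 2 smallest p of each list, and up to 2 called probe sets each way with no single gene. A gene is represented by its brightest called probe set, a list member by its brightest tested one. Genes chosen outside this rule are said to be. The comparison, the array to leave out, the lists and this rule were chosen with earlier results of these data known.

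Same-numbered arrays did not deviate together (correlations of 0.02, -0.13 and 0.11), so the replicate numbers were not used as pairs. Alternatives changed 1 choice at a time, in the normalization, the filter, the floor, the arrays fitted, the prior, array weights, a replicate block, a minimum change, the probe sets of a gene, and each leaf array left out. For the comparison without IL50-7 replicate 1 they were chosen after seeing the data. No reference sequence of these genes was used.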

Additional observations from a re-analysis of the deposited data

How the results depend on the processing

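None of the named results changed direction under the alternatives that fit single probe sets. They were not followed in the alternative that averages the probe sets of a gene. There LOC4351993, named with probe sets of both directions, can have only 1 direction. Over 357 combinations of 18 named results and alternatives with all 6 leaf arrays, 234 kept the call and 123 lost it, and without IL50-7 replicate 1, 203 of 303 kept it and 100 lost it. The count of 33 called probe sets was 56 on the deposited scale, 50 with the floor at the 25th percentile, 104 with array weights, 9 without a trend in the prior and 12 when the probe sets of a gene were averaged, which counts genes. Without a filter on dim probe sets limma called 0, with 2587 at an unadjusted p under 0.05. The replicate block gave 17, and 115 in place of 151 without IL50-7 replicate 1. With all 12 arrays in the fit 22 were called, of which 9 were among the 33, and 36.4% of them were higher in IL50-7 against 63.6%. With the floor at the background 51.4% of 35 were higher. Leaving out 1 array gave 7 to 151. The 8 called genes of chromosome 12 were 0 without the filter, 1 with all 12 arrays and 3 without the trend, and 2 to 10 with 1 array left out. Without IL50-7 replicate 1, the count of 151 was 292 with equal array medians, 313 on the deposited scale, 12 without the filter, 72 with the floor at the background, 78 with all 12 arrays, 42 without the trend and 88 with averaged probe sets, and 55 to 117 with 1 further array left out. The 51 called genes of chromosome 2 were then 1 without the filter, 21 with the floor at the background, 11 with all 12 arrays and 8 without the trend, and 14 to 37 with 1 further array left out. The cause of these shifts was not tested. With 2 or 3 arrays a group, a difference that misses the threshold may still be present, and a level near the background of log2 4.07 gives no size.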

Other observations

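At the 151 probe sets called without IL50-7 leaf replicate 1, the panicle arrays fell on both sides within each labelled line. The arrays labelled KMR3 panicle replicates 1 and 2 lay nearer the KMR3 leaf mean at 117 and 115 of the 151, and the array labelled KMR3 panicle replicate 3 lay nearer the IL50-7 leaf mean at 103. The arrays labelled IL50-7 panicle replicates 1 and 3 lay nearer the IL50-7 leaf mean at 105 and 108, and the array labelled IL50-7 panicle replicate 2 nearer the KMR3 leaf mean at 115. IL50-7 leaf replicate 1 lay nearer the KMR3 leaf mean at 86. At the 33 probe sets called with all leaf arrays it lay with its own line at every one, but there it was one of the arrays that made the call. What sets these arrays apart was not tested.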
